A study of Mus musculus with 6 samples.

Results

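Matrix metalloproteinases (Mmp genes), the Adamts proteinases and their tissue inhibitors (Timp genes) were followed in the myometrium, the smooth muscle wall of the uterus, of Tcf23 knockout and wild-type mice late in pregnancy. The members are the genes whose symbol in the deposited table is Mmp, Timp or Adamts with a number, which gave 46 of 55055 genes: 23 Mmp, 19 Adamts and 4 Timp genes. Of these, 38 had enough counts to be tested and 8 did not. The study asks what loss of TCF23, a basic helix-loop-helix protein, does to the muscle that contracts at birth.

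The knockout group (KO) held 3 pregnant mice in which Tcf23 had been inactivated with CRISPR/Cas9, and the wild-type group (WT) 3 pregnant mice with intact Tcf23, all sampled at E19.5 in the labels, which the series design calls gestational day 19. Each library came from a different animal. The labels state neither the strain, nor which part of the gene was removed, nor whether the knockout was limited to a tissue. Libraries were poly(A)-selected and made with a directional kit. Total counts were 39939686 to 65036402 in KO and 47345181 to 55236312 in WT. Tcf23 had 0, 2 and 1 counts in KO replicates 1, 2 and 3, against 4203, 5970 and 3360 counts in the WT libraries, so all 6 libraries matched their labels. Smooth muscle markers were abundant in every library, with Myh11 at 2320 to 8190 CPM (counts scaled to library size) in KO and 5475 to 5925 CPM in WT. The KO libraries differed more among themselves, since the summed level of 8 smooth muscle markers was 33119, 37186 and 14618 CPM in KO replicates 1, 2 and 3 and 26142 to 30530 CPM in WT.

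Mmps are zinc-dependent enzymes that are made as inactive precursors and, once activated, cut collagens, gelatin, laminin and many cell-surface proteins. Adamts enzymes are related secreted proteinases that trim procollagens or cut the large proteoglycans versican and aggrecan, and Timps bind the active site of Mmps and block it. In the uterus the matrix between muscle bundles is remodelled as pregnancy advances and again after birth, and leukocytes that enter the tissue carry some of these enzymes in their granules.

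No member passed the test for a genotype difference. With edgeR's quasi-likelihood test and Benjamini-Hochberg adjustment over 19599 genes, 0 of 38 members had an adjusted p under 0.05, against 0% of all genes tested called higher in KO and 0.0204% called lower. DESeq2 also called 0 members, where it called 1.29% of the genes it gave an adjusted p higher in KO and 0.72% lower, 2.01% in all; Mmp8 was given none. At an unadjusted edgeR p under 0.05 stood 6 of the 38, where 8.56% of all tested genes did: 5 members higher in KO, against 5.27% of all genes, and 1 lower, against 3.29%. The KO and WT values did not overlap for 5 of the 38, against 14.2% of all tested genes. Of these, 4 members were higher in KO, against 7.22% of all tested genes, and 1 was lower, against 7.01%. Log2 changes ran from −0.77 to 2.49, with 27 positive and 11 negative and a median of 0.14, where the median of all tested genes was 0.01. With replicate number as a block, the unadjusted threshold was met by 10 members higher in KO and 2 lower, where 6.25% of all tested genes were higher and 4.21% lower, and 0 members passed after adjustment. The smallest edgeR adjusted p with the block was 0.176, for Timp1, which ranged from 0.0626 to 0.834 over 15 alternatives. The block added Mmp7, Mmp9, Mmp15, Adamts8 and Adamts19 to those higher in KO and Mmp11 and Adamts3 to those lower, and Adamts18 no longer met the unadjusted threshold. Between same-numbered libraries, Mmp7, Mmp9, Mmp15, Adamts8 and Adamts19 were higher in KO, and Mmp11 and Adamts3 lower in KO, in all 3 pairs. These directions come from the same values as the block fit, and the share of all tested genes with such pairs was not computed.

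**Figure D1:**
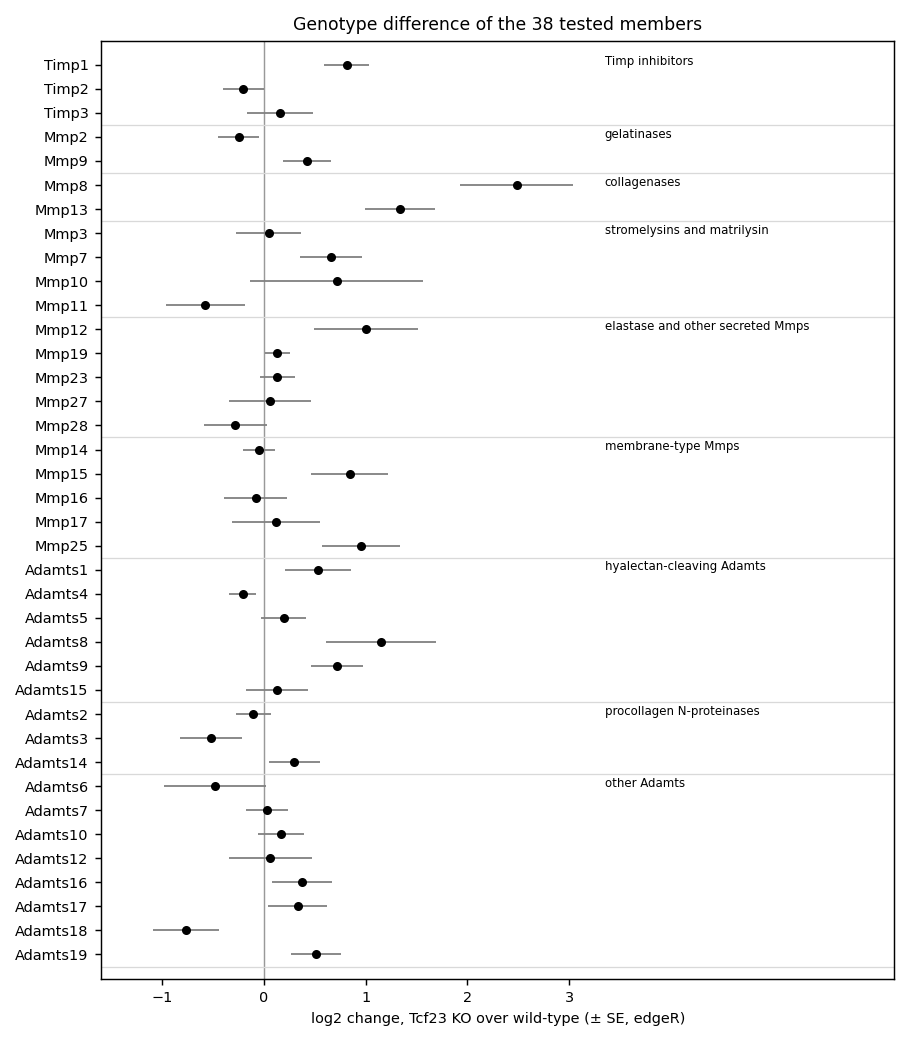
Log2 change of each of the 38 tested members, KO over WT, on the x axis, with genes grouped by role on the y axis. Bars are standard errors derived from edgeR's F statistic. Mmp8 had the largest positive change (2.49) and Adamts18 the largest negative one (−0.77), and no member had an adjusted p under 0.05.

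The positive median came with 1 library. KO replicate 2 held the highest value of 20 of the 38 members (52.6%), where it held the highest value of 22.2% of all tested genes. KO replicate 3 held the lowest value of 12 members (31.6%), against 20.02% of all tested genes. Relative to the WT mean, the median member stood at 0.13, 0.52 and −0.13 in KO replicates 1, 2 and 3 and at 0.04, 0.10 and −0.16 in WT replicates 1, 2 and 3, on the scale of log2(CPM + 0.1). The same median over all tested genes was between −0.003 and 0.006 in every library. Without KO replicate 2 the median log2 change of the members was 0.03, with 20 positive and 18 negative, and at an unadjusted edgeR p under 0.05 5 members were higher in KO (6.84% of all tested genes) and 4 lower (6.33%). Some other markers also stood high in KO replicate 2. Sums of 5 endothelial markers were 380, 553 and 286 CPM in KO replicates 1, 2 and 3 and 404 to 494 in WT. The smooth muscle sum was highest in KO replicate 2 too. The epithelial markers Krt8, Krt18, Krt19, Epcam and Cdh1 were instead each lowest in that library, and the fibroblast sum was highest in WT replicate 2. The part of tissue makeup in this pattern was not tested. In bulk tissue fewer cells of a type and less RNA per cell cannot be told apart. Marker sums of 4 other lists did not overlap between the genotypes: those of neutrophils, given beside Mmp8, of NK and T cells (12.7 to 20.1 CPM in KO, 6.40 to 7.95 in WT), of mesothelium (67.2 to 96.8 CPM in KO, 132 to 235 in WT) and of decidua. The 6 mast cell markers all had negative log2 changes (median −1.03). Kit and Tpsab1 did not overlap, and Tpsab1 was called by DESeq2 but not by edgeR. The mast cell sum overlapped (42.8 to 99.96 CPM in KO, 92.1 to 168 in WT). Among the single mesothelial markers only Msln did not overlap (14.0 to 28.1 CPM in KO, 41.7 to 73.4 in WT). Wt1, Upk3b, Lrrn4 and Muc16 overlapped, with WT replicate 3 inside the KO range for Upk3b, Lrrn4 and Muc16. The decidua sum was nearly all Dcn, which is also a fibroblast marker (2220 to 2617 CPM in KO, 2762 to 3747 in WT), while Prl8a2, a decidual prolactin-family gene, was higher in KO without overlap (23.1 to 81.2 CPM in KO, 3.72 to 16.7 in WT). Placenta and fetal membrane markers summed to 337, 10.5 and 0.805 CPM in KO replicates 1, 2 and 3 and 20.1 to 42.2 CPM in WT, so KO replicate 1 stood apart. Their part in the members' values was not tested.

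**Figure D2:**
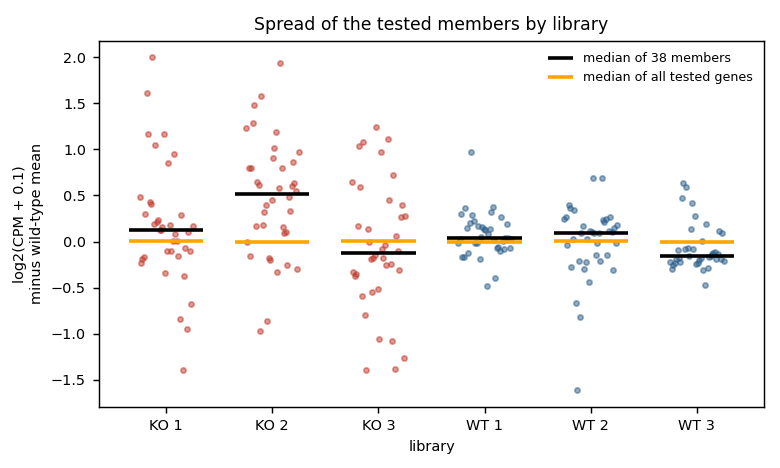
Each dot is 1 of the 38 tested members in 1 library, on the y axis as log2(CPM + 0.1) minus its WT mean. The black bar is the median of the members and the orange bar that of all tested genes. The members' median was 0.52 in KO replicate 2 and between −0.16 and 0.13 in the other libraries.

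Levels per kilobase of exon differed between members by several orders of magnitude. Timp2 ranked first, at 224 CPM per kb in KO and 258 in WT, followed by the matrilysin gene Mmp7 (189 and 119), the gelatinase gene Mmp2 (84.5 and 100.4) and the membrane-type gene Mmp14 (78.5 and 81.0). Timp1, Adamts1, Adamts2 and Mmp23 came next, between 38.8 and 68.0 CPM per kb in either genotype. In all, 13 members were above 10 CPM per kb on the mean of 6 libraries. At the other end Mmp1a and Mmp1b had 0 counts in every library, where 3 counts, the limit that a count of 0 allows, is 0.0466 to 0.0731 CPM depending on the library. The table gives Mmp1a as a polymorphic pseudogene, and both are mouse relatives of the human interstitial collagenase gene.

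**Figure D3:**
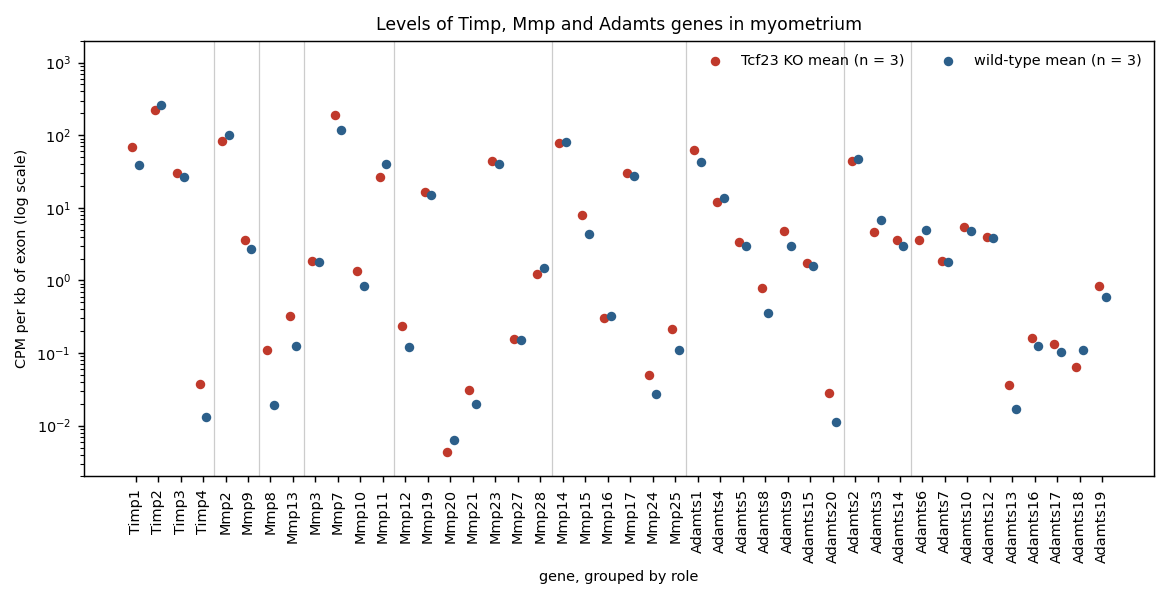
Mean level of every member with at least 1 count, in CPM per kb of exon on a log axis, for KO (red, left of each pair) and WT (blue, right of each pair), n = 3 each, with genes grouped by role. Timp2, Mmp7, Mmp2 and Mmp14 were the most abundant members per kb, and KO and WT means lay close together for most genes above 10 CPM per kb.

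Among the 3 tested inhibitors, only Timp1 had KO and WT values that did not overlap. Timp1, an inducible secreted inhibitor, is on chromosome X (mm10, 20870166 to 20874735, plus strand). It had 47.8, 80.0 and 53.4 CPM in KO replicates 1, 2 and 3, against 33.7, 40.5 and 29.1 CPM in WT replicates 1, 2 and 3. Every KO value was above every WT value, with KO replicate 2 the highest. The log2 change was 0.81 ± 0.22 (SE), which is 1.76-fold, and did not pass (edgeR adjusted p = 0.346; DESeq2 adjusted p = 0.0626).

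Timp2, which also takes part in activating pro-Mmp2 at the cell surface, had 845, 987 and 787 CPM in KO and 1013, 1194 and 809 CPM in WT, and the groups overlapped (log2 −0.20 ± 0.20). Timp3, the inhibitor that stays bound to the matrix, had 191, 376 and 167 CPM in KO and 266, 211 and 181 CPM in WT. Its single high value was KO replicate 2, and its log2 change of 0.16 ± 0.32 was −0.29 without that library. Timp4 was too low to be tested, with 11, 19 and 6 counts in KO and 3, 3 and 6 counts in WT. The CPM of Timp4 did not overlap (0.146 to 0.343 in KO, 0.0578 to 0.107 in WT), and its counting ratio was 2.88 with an exact 95% interval of 1.47 to 6.09. Timp4, an inhibitor best known from the heart, lies within Syn2 on the other strand. Overlapping genes had 1283% of its counts, and whether reads were counted by strand is not stated, so its values are uncertain.

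The collagenases, which make the first cut in fibrillar collagen, had the largest positive log2 changes among the Mmp genes, at very low levels. Mmp8, the collagenase stored in neutrophil granules (chromosome 9, 7558456 to 7568485, plus strand), had 22, 14 and 8 counts in KO and 4, 1 and 2 counts in WT. In CPM these were 0.342, 0.252 and 0.195 in KO and 0.0857, 0.0193 and 0.0357 in WT, with no overlap. The summed counts, scaled to library size, gave a ratio of 6.04 (exact 95% interval 2.70 to 15.9, which covers counting alone). The fitted log2 change was 2.49 ± 0.55 (edgeR adjusted p = 0.279), and DESeq2 gave Mmp8 no adjusted p.

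Mmp13, a collagenase of bone and remodelling tissue (chromosome 9, 7272514 to 7283331, plus strand), had 57, 62 and 23 counts in KO and 18, 18 and 16 counts in WT. These are 0.886, 1.12 and 0.561 CPM in KO and 0.386, 0.347 and 0.286 CPM in WT, again without overlap. The log2 change was 1.34 ± 0.35 (edgeR adjusted p = 0.325; DESeq2 adjusted p = 0.0999).

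The summed level of neutrophil markers, like Mmp8, was higher in each KO library than in any WT library. Of 8 neutrophil markers, 5 were tested, 4 of them with a positive log2 change, and DESeq2 called 4 and edgeR 0. Mpo was the exception, at 0.433 to 0.591 CPM in KO and 0.321 to 0.752 CPM in WT. The sum over the 8 was 31.9, 20.9 and 20.1 CPM in KO replicates 1, 2 and 3 and 8.51, 11.6 and 6.98 CPM in WT replicates 1, 2 and 3. Elane and Ly6g were at 0 in at least 1 library, none of the markers was at 0 in all, and S100a9 had 2.61 to 8.15 CPM in KO and 0.499 to 0.925 CPM in WT. The part of neutrophil content in the Mmp8 values was not tested.

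Mmp25, a membrane-anchored enzyme of leukocytes, and Mmp9, the gelatinase of leukocytes and remodelling tissue, were set beside the same markers. Mmp25 (chromosome 17, 23628311 to 23645277, minus strand) had 1.07, 1.21 and 1.17 CPM in KO and 0.364, 0.944 and 0.464 CPM in WT. Its groups did not overlap, although WT replicate 2 came near the KO values, and the log2 change was 0.96 ± 0.38 (edgeR adjusted p = 0.549). Mmp9 had 11.7, 16.5 and 10.6 CPM in KO and 8.40, 12.2 and 8.28 CPM in WT. WT replicate 2 lay above 2 of the KO libraries, and the log2 change was 0.43 ± 0.24 (edgeR adjusted p = 0.72).

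**Figure D4:**
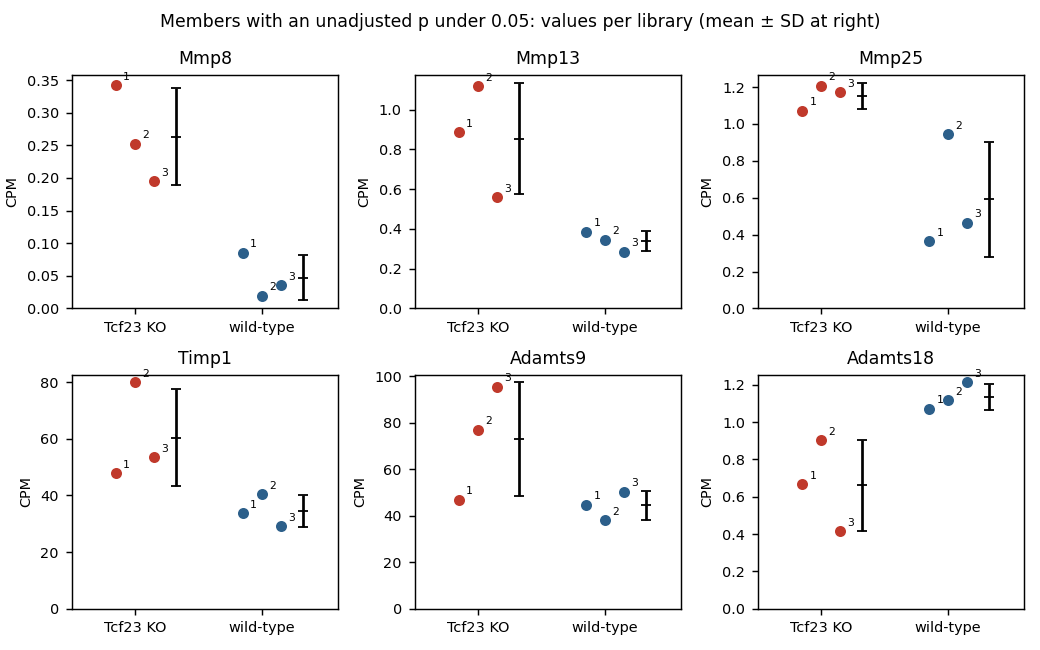
CPM in each library (y axes from 0) for the 6 members with an unadjusted edgeR p under 0.05, KO left and WT right, with the replicate number at each point and mean ± SD (n = 3) at the right of each group. KO and WT values did not overlap for Mmp8, Mmp13, Mmp25, Timp1 and Adamts18, and overlapped for Adamts9.

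The 4 tested members with non-overlapping, higher KO values are shown by the stretch from 250 bases before to 50 after their annotated start (RefSeq, GRCm38.p6, which is mm10), because they are the tested members whose KO values all lay above the WT values; the untested Timp4 is not shown. Capitals mark the E-box letters CANNTG, which basic helix-loop-helix factors can bind, and the AP-1 letters TGANTCA; both motifs read the same on either strand.
Mmp8 (chr9:7558179-7558478, plus strand): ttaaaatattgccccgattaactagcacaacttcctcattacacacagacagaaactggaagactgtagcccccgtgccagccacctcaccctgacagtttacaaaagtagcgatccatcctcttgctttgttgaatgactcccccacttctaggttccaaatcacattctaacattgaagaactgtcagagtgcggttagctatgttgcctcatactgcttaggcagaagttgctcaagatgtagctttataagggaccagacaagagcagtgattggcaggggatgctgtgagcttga
Mmp13 (chr9:7272264-7272563, plus strand): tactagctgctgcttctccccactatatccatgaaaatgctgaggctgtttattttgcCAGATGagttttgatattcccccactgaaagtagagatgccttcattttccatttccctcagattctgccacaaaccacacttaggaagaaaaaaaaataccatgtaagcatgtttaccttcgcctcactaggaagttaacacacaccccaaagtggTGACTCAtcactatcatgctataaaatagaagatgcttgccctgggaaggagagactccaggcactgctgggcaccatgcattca
Mmp25 (chr17:23645220-23645519, minus strand): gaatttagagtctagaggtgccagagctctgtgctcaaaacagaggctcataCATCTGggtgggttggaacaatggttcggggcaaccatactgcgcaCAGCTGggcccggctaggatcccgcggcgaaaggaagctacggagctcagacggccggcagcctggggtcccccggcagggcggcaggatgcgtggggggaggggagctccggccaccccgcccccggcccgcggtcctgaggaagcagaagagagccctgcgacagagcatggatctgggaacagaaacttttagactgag
Timp1 (chrX:20869916-20870215, plus strand): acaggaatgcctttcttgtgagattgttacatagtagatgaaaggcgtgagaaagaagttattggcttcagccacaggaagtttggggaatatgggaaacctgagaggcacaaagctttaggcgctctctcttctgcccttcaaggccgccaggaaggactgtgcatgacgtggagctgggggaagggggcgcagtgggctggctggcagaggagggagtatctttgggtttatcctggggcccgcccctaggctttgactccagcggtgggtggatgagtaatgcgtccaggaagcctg

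Mmp13 held 1 CANNTG and 1 TGANTCA, Mmp25 held 2 CANNTG and 0 TGANTCA, and the windows of Mmp8 and Timp1 held neither. RefSeq windows were at hand for 32 of the 46 members. CANNTG was found in 23 of these 32 genes (71.9%) and in 72.3% of all 32851 windows. TGANTCA was found in 8 of the 32 (25%) and in 7.81% of all windows. All 8 lie in a cluster of 10 Mmp genes on chromosome 9, each with a window, and 0 of the other 22 members with a window held the motif. Genes with more than 1 window were counted once if any window matched, and a match of letters is a description only.

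That cluster spans 427 kb (chromosome 9, 7272514 to 7699585) and holds, in order, Mmp13, Mmp12, Mmp1b, Mmp3, Mmp1a, Mmp10, Mmp8, Mmp27, Mmp20 and Mmp7. Of its 10 genes 7 were tested, and all 7 log2 changes were positive, from 0.04 for the stromelysin gene Mmp3 to 2.49 for Mmp8. Under at least 1 alternative the log2 change of Mmp10 (to −0.28), Mmp27 (to −0.20) and Mmp3 (to −0.18) was negative, while that of Mmp7, Mmp8, Mmp12 and Mmp13 stayed positive in each alternative that tested them. None of the 7 passed, and 52.1% of all tested genes had a positive log2 change. Mmp12, the macrophage elastase gene, had 1.74, 2.56 and 0.878 CPM in KO and 0.943, 0.405 and 1.25 CPM in WT. Its groups overlapped, and 8 macrophage markers summed to 1834 to 2206 CPM in KO and 1626 to 2218 CPM in WT, with none at 0. Mmp10, a stromelysin, spread widely within both genotypes, with 4.65, 1.71 and 0.585 CPM in KO and 2.23, 0.289 and 1.75 CPM in WT. Mmp3 had 4.37, 3.62 and 2.10 CPM in KO and 2.96, 4.10 and 2.75 CPM in WT. The related sequences of Mmp3 and Mmp10 can share reads, which makes each value less certain. Mmp20, the enamel proteinase gene, had 2 counts in all KO libraries and 3 in all WT libraries.

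Mmp7, an enzyme of glandular and luminal epithelium, had 160, 189 and 255 CPM in KO replicates 1, 2 and 3 and 139, 76.0 and 168 CPM in WT replicates 1, 2 and 3, and KO replicate 1 lay below WT replicate 3. The log2 change was 0.66 ± 0.31 (edgeR adjusted p = 0.618). Summed over all 23 Mmp genes, levels per kb were 484, 490 and 484 in KO and 447, 420 and 440 in WT. Without Mmp7 the sums were 334, 312 and 246 in KO and 317, 348 and 284 in WT, which overlap. Summed markers of uterine epithelium (7 genes, none at 0) were 2821, 1926 and 4754 CPM in KO replicates 1, 2 and 3 and 2629, 1652 and 3832 CPM in WT. Ltf was the largest of the 7 markers in every library. It had 1015, 1331 and 1728 CPM in KO and 1049, 619 and 1551 CPM in WT, the order of Mmp7 within each genotype. Krt8, Krt18, Krt19, Epcam and Cdh1 were each lowest of all libraries in KO replicate 2, where Krt8 had 145 CPM. In each genotype replicate 3 was highest for both the epithelial sum and Mmp7. WT replicates 1 and 2 also had the same order in both, while KO replicate 2 had a lower epithelial sum but more Mmp7 than KO replicate 1. The part of epithelial content in the Mmp7 values was not tested.

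Mmp11, stromelysin-3, which is typical of stromal cells next to epithelium, had 125, 55.8 and 41.5 CPM in KO and 134, 94.1 and 103 CPM in WT. KO replicate 1 was within the WT range and the other KO libraries were below it (log2 −0.58 ± 0.39, edgeR adjusted p = 0.784). KO replicate 1 also had the highest placental marker sum given above, whose part in the Mmp11 values was not tested; without that library the log2 change was −1.17. Mmp2, the main gelatinase of fibroblasts and smooth muscle, had 296, 298 and 260 CPM in KO and 296, 437 and 282 CPM in WT. The log2 change was −0.25 ± 0.20 (edgeR adjusted p = 0.84), and WT replicate 2 alone stood far above the KO values. Markers of fibroblasts (7 genes, none at 0) summed to 15422, 18397 and 18861 CPM in KO and 16247, 24637 and 14779 CPM in WT. The WT libraries had the same order for this sum and Mmp2, with WT replicate 2 the highest. KO replicate 3 had the highest KO sum but the lowest Mmp2. The part of fibroblast content in the Mmp2 values was not tested.

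The membrane-type enzyme Mmp14, which activates pro-Mmp2, was nearly equal in the genotypes, with 539, 427 and 436 CPM in KO and 500, 494 and 455 CPM in WT (log2 −0.05 ± 0.16). Mmp17, a membrane-anchored enzyme, spread widely in KO. It had 167, 337 and 86.5 CPM in KO replicates 1, 2 and 3 and 196, 194 and 154 CPM in WT. Its order in the KO libraries was that of the smooth muscle sums given above, and the part of muscle content in it was not tested. Mmp15, another membrane-type enzyme, had 52.1, 20.1 and 54.8 CPM in KO and 25.8, 17.0 and 28.1 CPM in WT, with KO replicate 2 inside the WT range. The log2 change of Mmp15 was 0.84 ± 0.38 (edgeR adjusted p = 0.606). Without KO replicate 2 it was 1.18 ± 0.22 (edgeR adjusted p = 0.154, the smallest over 15 alternatives). Mmp16 had 1.93 to 3.84 CPM in KO and 2.34 to 3.07 CPM in WT. Mmp24 was not tested (3 to 19 counts in KO, 5 to 9 in WT), and the gene overlapping it had 9775% of its counts.

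Of the remaining Mmp genes, Mmp23 and Mmp19 were the most abundant. Mmp23 had 111, 117 and 82.1 CPM in KO and 92.8, 106 and 84.3 CPM in WT (log2 0.13 ± 0.17), and Mmp19, which cuts basement membrane proteins, had 61.9, 60.4 and 53.4 CPM in KO and 52.7, 57.1 and 50.8 CPM in WT (log2 0.13 ± 0.12). Mmp28 (epilysin) had 3.05 to 6.12 CPM in KO and 4.78 to 7.51 CPM in WT, and Mmp27 had 0.195 to 0.469 CPM in KO and 0.251 to 0.386 CPM in WT. Mmp21 was not tested, at 1 to 7 counts in KO and 1 to 4 in WT.

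Among the Adamts genes that cut versican and related proteoglycans, Adamts9 had the smallest p. Adamts9 (chromosome 6, 92772699 to 92943492, minus strand) had 46.9, 77.0 and 95.5 CPM in KO and 44.8, 38.2 and 50.3 CPM in WT. KO replicate 1 lay inside the WT range, and the log2 change was 0.72 ± 0.26 (edgeR adjusted p = 0.485). Adamts1, which is induced by progesterone in the ovary, was the most abundant of this class per kb. It had 259, 524 and 216 CPM in KO and 242, 245 and 202 CPM in WT, so that KO replicate 2 alone stood apart (log2 0.53 ± 0.33, and 0.05 without that library). Its chromosome 16 neighbour Adamts5, an aggrecanase, had 32.2, 47.8 and 31.1 CPM in KO and 39.8, 31.6 and 25.9 CPM in WT, with KO replicate 2 again the highest.

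Adamts4, the other main aggrecanase, had 61.3, 52.4 and 58.1 CPM in KO and 72.7, 59.7 and 66.2 CPM in WT (log2 −0.21 ± 0.13). Adamts8 had 3.22, 6.49 and 1.34 CPM in KO and 2.12, 1.73 and 1.14 CPM in WT, and Adamts15 had 15.5 to 21.1 CPM in KO and 11.7 to 24.97 CPM in WT. Adamts20 was not tested; it had 5, 31 and 5 counts in KO and 7, 4 and 4 counts in WT, so 1 library held most of its KO counts.

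The procollagen N-proteinases remove the amino-terminal propeptide of fibrillar procollagens. Adamts2 had 390, 462 and 367 CPM in KO and 414, 512 and 385 CPM in WT (log2 −0.11 ± 0.17). Adamts3 had 20.3, 39.0 and 17.1 CPM in KO and 34.98, 42.3 and 32.5 CPM in WT. In Adamts3 the lowest values were KO replicates 1 and 3 while KO replicate 2 was within the WT range. Its log2 change was −0.52 ± 0.30 (edgeR adjusted p = 0.741) and −0.96 ± 0.16 without KO replicate 2 (edgeR adjusted p = 0.142, the smallest over 15 alternatives). Adamts14 had 18.5, 12.7 and 25.1 CPM in KO and 14.1, 17.96 and 13.8 CPM in WT.

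Adamts18 was the only tested member whose KO values all lay below the WT values. Adamts18 (chromosome 8, 113697126 to 113848615, minus strand) had 0.668, 0.902 and 0.415 CPM in KO, from 43, 50 and 17 counts, against 1.07, 1.12 and 1.21 CPM in WT, from 50, 58 and 68 counts. The log2 change was −0.77 ± 0.33 (edgeR adjusted p = 0.583). Adamts6 and Adamts12 repeated the KO replicate 2 pattern. Adamts6 had 14.6, 54.0 and 14.8 CPM in KO and 46.4, 34.8 and 35.5 CPM in WT, so KO replicates 1 and 3 were below and replicate 2 above every WT library. Without KO replicate 2 its log2 change was −1.40 ± 0.17 (edgeR adjusted p = 0.104, the smallest over 15 alternatives), against −0.48 ± 0.50 with it. Adamts12, which cuts a cartilage matrix protein, had 21.4, 75.0 and 33.3 CPM in KO and 42.4, 44.4 and 37.5 CPM in WT, the same order of libraries against the WT range.

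Of the remaining Adamts genes, Adamts10, which binds to fibrillin microfibrils, had 37.6, 60.0 and 36.7 CPM in KO and 37.5, 47.4 and 34.8 CPM in WT (log2 0.17 ± 0.23). Adamts19 had 9.28, 16.2 and 9.95 CPM in KO and 8.40, 9.29 and 7.10 CPM in WT, with a small overlap. Adamts7 had 8.61 to 14.1 CPM in KO and 10.3 to 12.1 CPM in WT, and overlaps Tbc1d2b, which had 635% of its counts. Adamts16 and Adamts17 were near 1 CPM in both genotypes. Adamts13, the enzyme that cuts von Willebrand factor, was not tested (4 to 12 counts in KO, 0 to 8 in WT).

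**Figure D5:**
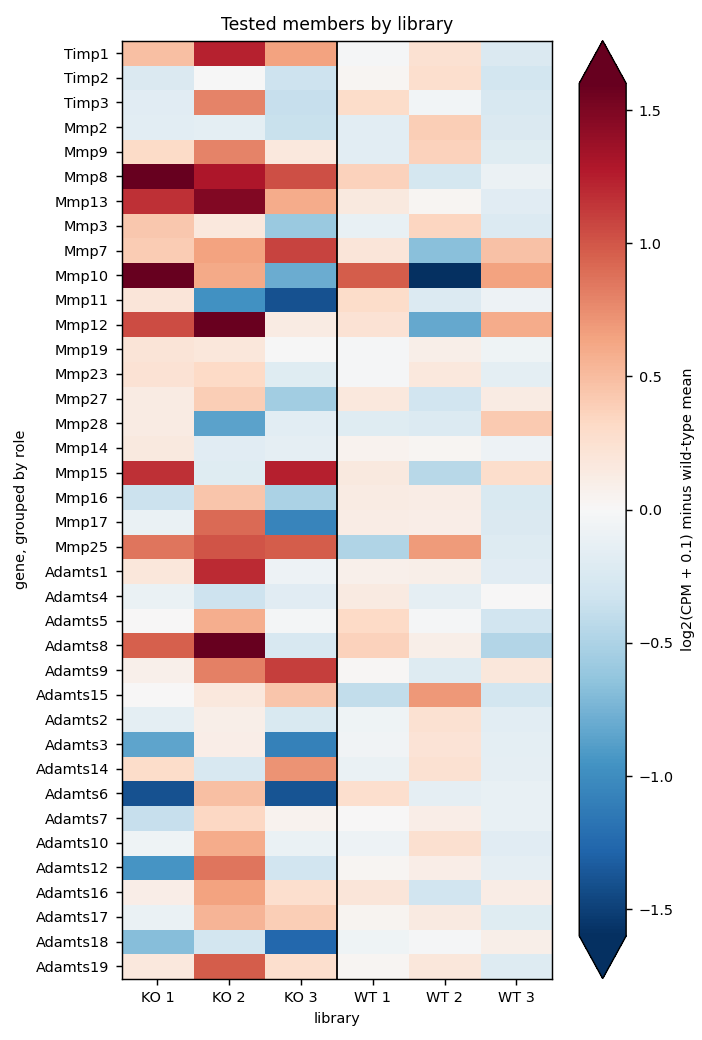
Each of the 38 tested members (rows, grouped by role) in each library (columns, KO left of WT), coloured by log2(CPM + 0.1) minus the WT mean; values past the ends of the colour bar take its end colours. KO replicate 2 was the highest library for 20 of the 38 members, and Mmp8, Mmp13, Mmp25 and Timp1 were above every WT library in all 3 KO libraries.

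Spread among the 3 KO libraries was larger than among the WT libraries for 28 of the 38 members (73.7%), close to the 76.1% of all tested genes. The median SD on the log2(CPM + 0.1) scale was 0.44 in KO and 0.23 in WT for the members, and 0.31 in KO and 0.17 in WT for all tested genes. Ratios of summed Timp to summed enzyme levels did not separate the genotypes, and they do not measure inhibition. Timp2 gave most of the Timp sum, at 224 of 322 CPM per kb in KO and 258 of 324 in WT. Summed Timp levels per kb divided by summed Mmp levels per kb gave 0.608, 0.796 and 0.584 in KO and 0.741, 0.901 and 0.597 in WT, and against summed Adamts levels the ratio was 1.89 to 2.28 in KO and 2.12 to 2.52 in WT.

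Other genes of the pathway were read from lists of regulators, related proteinases and substrates, and 0 passed edgeR's adjusted threshold in any list. Among all tested genes, KO and WT values did not overlap for 7.22% higher in KO and 7.01% lower. Of 19 regulators and activators 17 were tested, with 12 positive and 5 negative log2 changes and a median of 0.08. Groups did not overlap for 2 higher in KO, Serpine2 and A2m, and 1 lower, Thbs1. Thbs1, which encodes thrombospondin-1, which can block Mmp activation, had 254, 758 and 189 CPM in KO and 1511, 966 and 1041 CPM in WT, without overlap (log2 −1.55 ± 0.52, edgeR adjusted p = 0.435). The serine proteinase inhibitor gene Serpine2 averaged 166 ± 14.9 CPM in KO and 122 ± 12.9 CPM in WT (SD, n = 3 each; log2 0.44). The proteinase trap gene A2m averaged 131 ± 27.4 CPM in KO and 76.3 ± 32.04 CPM in WT, and the fibulin gene Fbln1 averaged 397 ± 137 CPM in KO and 261 ± 24.2 CPM in WT.

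Of the 6 Adamts-like and papilin genes, 4 log2 changes were positive and 2 negative, with a median of 0.18. Groups did not overlap for 1 of them, lower in KO. Papln, which encodes papilin, a matrix protein with Adamts-like domains, had 65.7, 101 and 88.9 CPM in KO and 128, 141 and 106 CPM in WT, without overlap (log2 −0.55 ± 0.19, edgeR adjusted p = 0.478). The Adamts-like genes Adamtsl5, Adamtsl2 and Adamtsl3 had log2 changes of 0.40, 0.45 and −0.70 and overlapping groups. Of 11 tested Adam and astacin proteinases, 5 were positive and 6 negative (median −0.01). Adam33, a membrane proteinase of mesenchymal cells, had 48.3, 91.0 and 51.4 CPM in KO and 36.7, 34.7 and 34.2 CPM in WT (log2 0.85 ± 0.25, edgeR adjusted p = 0.367). Tll1, a procollagen C-proteinase of the astacin family, had 7.59, 11.9 and 15.8 CPM in KO and 22.6, 18.6 and 26.2 CPM in WT (log2 −0.94 ± 0.27, edgeR adjusted p = 0.368). Adam12, which had the smallest p of this list, had 49.1, 43.4 and 62.9 CPM in KO and 74.3, 91.7 and 72.4 CPM in WT (log2 −0.62 ± 0.18, edgeR adjusted p = 0.365). Groups did not overlap for 1 gene of the list higher in KO, Adam33, and 2 lower, Adam12 and Tll1. The log2 change of Adam8 was 0.96, with overlapping groups.

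Among 17 tested matrix substrates, 10 log2 changes were positive and 7 negative, with a median of 0.16. Groups did not overlap for 1 of them higher in KO and 3 lower. Vcan, which encodes versican, the proteoglycan cut by Adamts1, Adamts4, Adamts5 and Adamts9, had 114, 176 and 143 CPM in KO and 86.7, 96.3 and 81.8 CPM in WT. All KO values were above all WT values (log2 0.71 ± 0.18), with an adjusted p of 0.325 in edgeR and 0.0376 in DESeq2, and Vcan was the 1 gene of these lists that DESeq2 called. Tnc, which encodes tenascin-C, a glycoprotein of remodelling matrix, had 191, 287 and 95.6 CPM in KO and 738, 372 and 318 CPM in WT, without overlap (log2 −1.32 ± 0.46, edgeR adjusted p = 0.467). The elastin gene Eln and the decorin gene Dcn had log2 changes of 0.69 and −0.42.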

How the data were processed

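The authors deposited, per library, a list of raw counts by Ensembl gene, and 1 table of normalized values, which holds each count times 1 constant per library (a signal, from its values, with constants of 0.804 to 1.26). Tools in the submitters' processing notes are HISAT2 2.2.1, HTSeq 0.9.1, DESeq2 2.11.40.7 and FastQC 0.73, with build mm10 and no roles. Annotation release and strand setting: not given in the sources used here.

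Deposited counts were tested with edgeR 4.0.16 in R 4.3.3 (filterByExpr, TMM, quasi-likelihood fit on genotype, Benjamini-Hochberg adjusted p under 0.05). The common biological coefficient of variation was 26.3%. CPM are relative to TMM-scaled library sizes, and ± beside a log2 change is its SE. It was derived as the absolute log2 change divided by the square root of edgeR's quasi-likelihood F. Exon lengths and overlaps came from GENCODE M21, which held all 46 members. Its starts equal those of the deposited table in 43 of them; table positions, counted from 0, are printed from 1. Intervals cover counting error only.

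Members, lists and roles were chosen with earlier results of these data known. Log2 changes were given for members with an unadjusted p under 0.05, non-overlapping groups or 1 of the 2 highest mean CPM of their role, and up to 4 genes of smallest p per pathway list. Those of Adamts6, of Mmp15 and of single cluster genes were added after their values were seen.

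No 2 libraries of a group were duplicates (chi-square over genes 36.3 to 234 times its degrees of freedom). Replicate numbers were shared in the titles, and same-numbered libraries correlated in their deviations from the group means at 0.147, 0.196 and 0.217, so a fit with the number as a block was set beside the main one. Other settings tried were DESeq2 1.42.0, limma-voom, limma 3.58.1 on log2(deposited normalized value + 1), a robust fit, upper-quartile or RLE scaling, no filter or one that kept genes reaching 1 CPM in 3 libraries, and leaving out each library. In simulated data of this comparison (19326 genes, independent of each other), edgeR recovered 40% of 2-fold and 98% of 4-fold changes. Changes were planted only in genes above about 1 CPM, with the same biological coefficient of variation for every gene and both groups. Mmp8, Mmp13, Mmp25, Mmp27, Adamts17 and Adamts18 lie below that level and Adamts16 lies close to it. The real KO libraries also spread more than the WT libraries. The 2 shares therefore do not describe the members below that level.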

Additional observations from a re-analysis of the deposited data

How the results depend on the processing

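The count of members past the adjusted threshold was 0 in both directions under all 15 alternatives. The smallest edgeR or DESeq2 adjusted p of any member was 0.0626 (Timp1, DESeq2). Members at an unadjusted p under 0.05 numbered 3 to 7 higher and 0 to 4 lower with 1 library left out, and 3 to 10 higher and 0 to 2 lower under the other settings, counts that were added after seeing the data. With the replicate block the numbers were 10 and 2, and without a filter 10 and 0. The median log2 change of the members was 0.03 (without KO replicate 2) to 0.29 (without KO replicate 3). Over all genes, calls higher and lower in KO were 4 and 8 with upper-quartile scaling, 47 and 34 with no filter and 248 and 138 with DESeq2. They were 2 and 5 with the replicate block, and 0 to 3 and 1 to 4 with 1 library left out.

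Of 328 values for 22 members, 13 changed sign. Adamts12 was −0.13 with limma-voom, −0.14 with limma on normalized values and −0.13 with the replicate block, and −0.60 to 0.39 with 1 library left out. Mmp17 was −0.11, −0.091 and −0.089 under the same 3 settings, and −0.51 to 0.48 with 1 library left out. Leaving out 1 library gave −0.10 to 0.31 for Adamts10, −0.20 to 0.021 for Adamts2, −0.16 to 0.018 for Mmp14 and −0.29 to 0.37 for Timp3. The replicate block changed no adjusted call of a member. The counts of Mmp8 limit what its fold can show.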
